A study of Mus musculus with 35 samples.

Results

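The mature myelin genes are 9 genes whose proteins build or serve the myelin sheath of oligodendrocytes. They were chosen by name, with earlier results of these data known, and all 9 were found among the 21203 genes of the deposited table and passed the filter on low counts, as 17131 genes did. The study asked what mesenchymal stromal cells (MSCs) that carry synthetic mRNA for interleukin-4 (IL-4) do in the mouse brain after a closed head injury, in which the intact skull is struck. The deposited table of the bulk RNA-seq holds 34 libraries, 1 per mouse. All were male C57BL/6NCrl mice, between 8 and 9 weeks old when procedures began. The 5 sham mice had neither injury nor treatment, and 2 of them were collected with the 1 week groups and 3 with the 3 week groups. The injured mice were given phosphate-buffered saline (PBS), naïve MSCs or IL-4 MSCs on day 5 after injury, with the left hippocampus as the site of injection. Tissue was taken 2 days later in the 1 week groups and 16 days later in the 3 week groups, with 5 mice per group except 4 after PBS at 3 weeks, where the authors left out 1 mouse. The cells came from a vendor's stock of primary MSCs of the same strain, and the IL-4 mRNA acts for a short time. The labels give the tissue as left cortex, and the sampled block lay around the injection site in the left hemisphere. The bracketed number in the titles was the same for all mice of an injured group and differed between groups, and the sham mice of each week had a number of their own, so whatever it stands for cannot be told apart from group or, in sham, from week.

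Myelin is the layered membrane that oligodendrocytes wrap around axons, where it speeds conduction and supports the axon. Its compact layers are held together by basic proteins at their inner faces, its open channels carry cytoplasm to the innermost layer, and its membranes are rich in galactolipids. Myelin and the cells that make it can be lost after brain injury, and new oligodendrocytes can form from precursors that divide throughout adult life.

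Each library held between 29838423 and 41554322 estimated counts. Levels are given as CPM, the counts scaled to library size, and the members are ordered by level as TPM, which allow for transcript length as well. The most abundant gene of each other list was set by mean CPM, and where mean TPM, a ranking added after the data were seen, gives another gene, both are named. At these depths 3 counts, taken as the floor, equal 0.0722 to 0.101 CPM, and such floors cover counting error only. The lowest member value of any library, 6.45 CPM of Opalin, was far above the floor. In sham mice, Mbp was the 19th most abundant of all 21203 genes at 3090 ± 225 TPM (SD, n = 5). Mobp followed at 820 ± 119 TPM, and then Cnp at 299 ± 27.8 TPM, Mag at 266 ± 26.1 TPM, Cldn11 at 208 ± 31.4 TPM and Mal at 174 ± 31.4 TPM. Mog had 77.1 ± 9.33 TPM, Ugt8a 43.6 ± 3.64 TPM and Opalin 26.0 ± 2.25 TPM. The sham values of Cnp and Mag overlapped, as did those of Mag and Cldn11 and of Cldn11 and Mal, and no other neighbours in this order did. Together the members made up 0.5004% ± 0.0454 of all TPM in sham (SD, n = 5). In the injured groups their mean share lay between 0.458% after PBS at 3 weeks and 0.514% after MSCs at 1 week.

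Positions are those of GRCm38. Mog (ENSMUSG00000076439) lies at chr17:37010743-37023398, Mag (ENSMUSG00000036634) at chr7:30899176-30914873, and Mobp (ENSMUSG00000032517) at chr9:120149707-120181484. Cnp (ENSMUSG00000006782), at chr11:100574904-100591729, overlaps the coding gene Dnajc7. Mal (ENSMUSG00000027375) lies at chr2:127633226-127656695 and Opalin (ENSMUSG00000050121) at chr19:41061710-41077113. Cldn11 (ENSMUSG00000037625), at chr3:31149920-31164324, and Ugt8a (ENSMUSG00000032854), at chr3:125865271-125938619, share a chromosome, and the identifier of Mbp is ENSMUSG00000041607.

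Some libraries stood apart before any comparison was made. PBS replicate 1 at 3 weeks was the lowest of the 34 libraries in Mag, Mobp, Mal, Cldn11 and Ugt8a, and the next to lowest in Mbp, Mog and Cnp. MSC replicate 4 at 3 weeks was the lowest in Mog, Cnp and Opalin and the next to lowest in Mag and Ugt8a, yet the highest in Mobp at 980 CPM. Its Opalin was 6.45 CPM, against 18.7 to 25.5 CPM in the other MSC mice of 3 weeks. PBS replicate 1 at 3 weeks also had the least of 6 markers of ependyma and choroid plexus, with a summed 27.0 CPM, and 315 CPM of 6 thalamic markers. MSC replicate 4 at 3 weeks had 1169 CPM of 12 markers of leptomeninges and fibroblasts, the most of any library. The part of these tissues in the members' values was not tested.

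The sham mice of the 2 weeks differed in the members' averages, though edgeR called none of the members, which bears on every comparison with sham. In a fit with sham split by week, added after the data were seen, all 9 members were higher on average in the 3 sham mice of 3 weeks than in the 2 of 1 week. The log2 differences ran from 0.12 in Mbp to 0.47 in Mal with a median of 0.22, beside a median of 0.000239 over all 17362 genes tested in that fit. edgeR called 0 of the 9 at an adjusted p under 0.05, with 3 at an unadjusted p under 0.05, and 0.0922% of all genes. DESeq2 called 2 of the 9, Mal (log2 difference 0.47, adjusted p = 0.00991) and Cldn11 (0.39, adjusted p = 0.0219), and 351 of all genes, where edgeR called 16. With any 1 sham mouse of 3 weeks left out, edgeR called neither gene, as with all 5. Leaving out a sham mouse of 1 week leaves 1 mouse in that set, so those fits cannot show whether a call holds. Results against sham use all 5 sham mice unless sham mice of the same week are named, and the marker lists and other myelin genes were compared with all 5 only.

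Markers of neighbouring regions also differed between the sham mice of the 2 weeks. The summed level of 8 markers of striatal projection neurons was 224 and 208 CPM in the sham mice of 1 week and 692, 748 and 849 CPM in those of 3 weeks. At 1 week it was 400.2, 273, 284, 382 and 328 CPM after PBS, 732, 563, 848, 323 and 235 CPM after MSCs, and 408, 613, 804, 820.0 and 484 CPM after IL-4 MSCs. At 3 weeks it was 277, 219, 383 and 512 CPM after PBS, 455, 311, 462, 701 and 256 CPM after MSCs, and 1508, 366, 1469, 2480 and 1835 CPM after IL-4 MSCs. The sham mice of 1 week had less than those of 3 weeks without overlap, and IL-4 MSCs at 3 weeks had the most in 4 of 5 mice. The most abundant of these markers was Pde10a by mean CPM and Penk by mean TPM, and none of the 8 was at 0 in any library. IL-4 MSCs at 3 weeks had 6 of the 8 called higher against sham, where 4.27% of all genes were called, and 8 of 8 against PBS, where 2.94% were. With only the groups compared in the fit, edgeR called no gene between IL-4 MSCs and PBS at 3 weeks, so those 8 calls were lost. The 6 thalamic markers, of which Rora was the most abundant by mean CPM and Prkcd by mean TPM, summed to 431 and 334 CPM in the sham mice of 1 week and 740.3, 752 and 592 CPM in those of 3 weeks, again without overlap. Cortical and hippocampal markers went the other way, also without overlap. The cortical list had 1454 to 1534 CPM in the sham mice of 1 week and 1283 to 1418 CPM in those of 3 weeks. The hippocampal list had 557 to 652 CPM and 510 to 545 CPM. PBS at 1 week had 273 to 400 CPM of striatal markers beside 188 to 233 CPM of Cldn11, and IL-4 MSCs at 3 weeks had 366 to 2480 CPM beside 155 to 189 CPM. Within groups, with each group's mean subtracted, Pearson's r over the 34 libraries between the striatal list and Cldn11 was 0.642, and 0.480 with the sham weeks kept apart. The same values were 0.657 and 0.492 for Mal. Between Cldn11 and the cortical list they were -0.451 and -0.383, and between Cldn11 and the hippocampal list -0.514 and -0.457. These are descriptions without a test, and the part of the sampled region in the members' values was not tested.

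Injury was compared with sham at 1 week, 2 days after treatment. All injured mice also had an injection that sham mice lacked, so injury and injection cannot be told apart here. Cldn11 rose in every injured group and was the 1 member of 9 called, and edgeR found 0 that fell. Over all genes 13.8% were called after PBS, 17.8% after MSCs and 37% after IL-4 MSCs. The median log2 fold change of the 9 was -0.07 after PBS, -0.02 after MSCs and -0.13 after IL-4 MSCs, beside -0.01, -0.01 and -0.02 over all genes tested. Against the sham mice of 1 week alone the medians of the 9 were positive, at 0.09, 0.17 and 0.03, beside -0.02, -0.01 and -0.00188 over all genes. These 3 comparisons share the sham mice. In bulk tissue, fewer cells of a type and less RNA per cell cannot be told apart.

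Cldn11 encodes the claudin of the tight junctions that run between the layers of central myelin, and it is also made by the barrier cells of the arachnoid. Its level was 147 and 146 CPM in the sham mice of 1 week and 189, 195 and 194 CPM in those of 3 weeks. At 1 week it was 195, 233, 188, 225 and 214 CPM after PBS, 214, 223, 235, 205 and 206 CPM after MSCs, and 189.5, 202, 223, 221 and 198 CPM after IL-4 MSCs. All 15 injured mice were above the sham mean and above both sham mice of that week, and 3 of 5 PBS, 5 of 5 MSC and 4 of 5 IL-4 MSC mice were above every sham mouse. The log2 fold change from sham was 0.28 after PBS (SE 0.08, 95% confidence interval 0.11 to 0.45, adjusted p = 0.0223), 0.31 after MSCs (SE 0.08, 0.14 to 0.48, adjusted p = 0.0074) and 0.25 after IL-4 MSCs (SE 0.08, 0.08 to 0.42, adjusted p = 0.0192). Against the sham mice of 1 week alone, in the fit with sham split by week, it was 0.51 after PBS (adjusted p = 0.000533), 0.55 after MSCs (adjusted p = 0.000137) and 0.50 after IL-4 MSCs (adjusted p = 0.000117). The call after PBS was lost without sham replicate 0, sham replicate 1, PBS replicate 1 or PBS replicate 3, where the count of members fell to 0 and the adjusted p reached 0.0877, and it was lost with only the 2 groups fitted (0.28, adjusted p = 0.082, the highest of 8 alternatives, the lowest being 0.000533). The call after IL-4 MSCs was lost without sham replicate 1 (0.19, adjusted p = 0.0823), and that after MSCs held without any 1 library, with an adjusted p of at most 0.0359.

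By 3 weeks, 16 days after treatment, Cldn11 had fallen. It was 157, 132, 157 and 172 CPM after PBS, 169, 152, 158, 192 and 155 CPM after MSCs, and 168, 160.4, 189, 155 and 161 CPM after IL-4 MSCs. After PBS and MSCs every mouse of 3 weeks was below every mouse of 1 week, and after IL-4 MSCs the highest mouse of 3 weeks was just under the lowest of 1 week. From 1 to 3 weeks Cldn11 fell by 0.45 on the log2 scale after PBS (SE 0.09, adjusted p = 0.00119), by 0.39 after MSCs (SE 0.08, adjusted p = 0.00285) and by 0.31 after IL-4 MSCs (SE 0.08, adjusted p = 0.00416). These 3 calls held without any 1 library and under every alternative run. Over all genes 5.51% were called after PBS from 1 to 3 weeks, 6.15% after MSCs and 33% after IL-4 MSCs, and Cldn11 was the member called in each. Against sham at 3 weeks the log2 fold change of Cldn11 was -0.17 after PBS, -0.08 after MSCs and -0.06 after IL-4 MSCs, and none was called. Against the sham mice of 3 weeks alone it was -0.33 after PBS (adjusted p = 0.0862), -0.23 after MSCs (adjusted p = 0.23) and -0.22 after IL-4 MSCs (adjusted p = 0.194), none called, with 4 of 4, 4 of 5 and 4 of 5 mice below every sham mouse of that week.

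The change of Cldn11 within a library was set against the other members of that library. On the log2 scale Cldn11 minus the mean of the other 8 members was -0.21 ± 0.10 in sham (SD, n = 5). It was 0.19 ± 0.08 after PBS, 0.16 ± 0.10 after MSCs and 0.19 ± 0.11 after IL-4 MSCs at 1 week (SD, n = 5 each). At 3 weeks it was -0.23 ± 0.08 after PBS (SD, n = 4), -0.15 ± 0.16 after MSCs and -0.18 ± 0.06 after IL-4 MSCs (SD, n = 5 each). The lowest injured mouse of 1 week, at 0.03, was above the highest sham mouse, at -0.07. This difference was not tested. It was -0.30 ± 0.05 in the sham mice of 1 week (SD, n = 2) and -0.16 ± 0.08 in those of 3 weeks (SD, n = 3). Cldn11 was the member called higher at 1 week in these same libraries, and Opalin, the lowest against sham, is among the other 8. The separation was thus partly set by the choice of Cldn11 and is no separate support for its call.

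**Figure D1:**
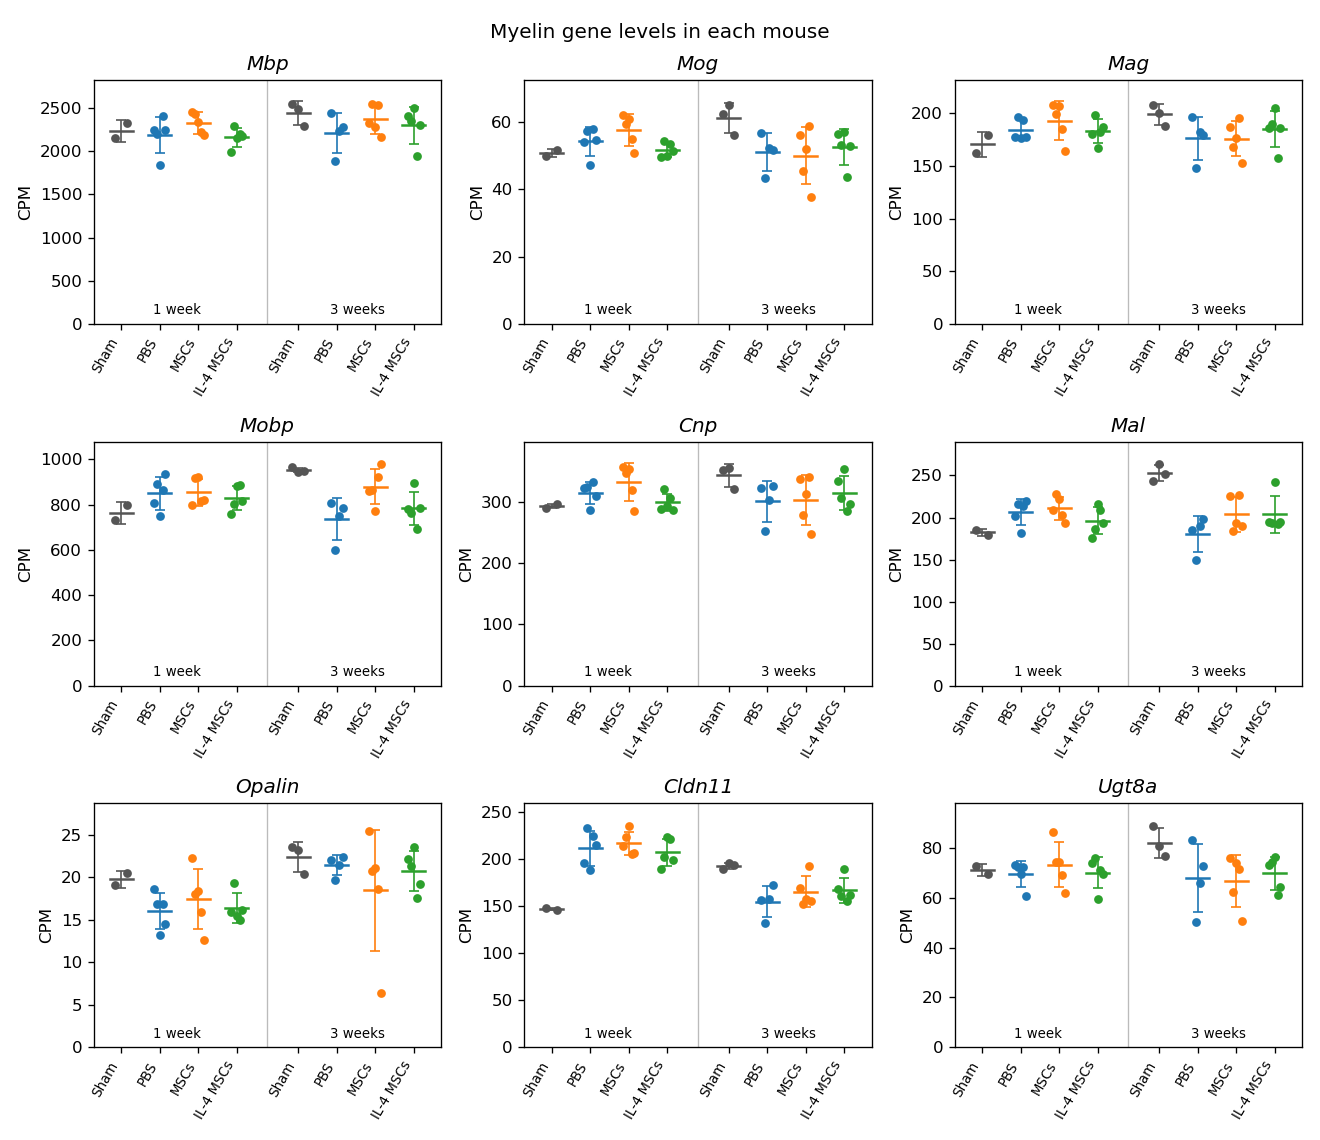
Levels of the 9 members in CPM, 1 panel per gene with an axis from 0, for sham, PBS, MSCs and IL-4 MSCs at 1 week and at 3 weeks, with points for mice, lines for means and bars for SD. In the panel of Cldn11 the injured mice of 1 week lie between 188 and 235 CPM and the sham mice of that week at 146 and 147 CPM, and in the panels of Mal and Mobp the sham mice of 3 weeks lie above those of 1 week.

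Mal, a proteolipid of glycolipid-rich membranes that takes part in sorting proteins to myelin, was the member with the lowest log2 fold change of IL-4 MSCs against PBS at 1 week. Its level was 185 and 179 CPM in the sham mice of 1 week and 243, 263 and 252 CPM in those of 3 weeks. At 1 week it was 202, 216, 182, 214 and 219.8 CPM after PBS, 209, 228, 222, 203 and 193 CPM after MSCs, and 176, 186, 216, 209 and 194 CPM after IL-4 MSCs. The sham mice split by week, and nearly all injured mice of 1 week lay between the 2 sham sets, with 1 PBS mouse among the low sham mice and 1 IL-4 MSC mouse below them. At 3 weeks it was 185, 150.0, 189.9 and 198 CPM after PBS, 225, 184, 193, 227 and 190.2 CPM after MSCs, and 195, 194, 243, 192 and 195 CPM after IL-4 MSCs. All 14 injured mice of 3 weeks were below the 3 sham mice of that week. Against all sham mice the log2 fold change at 1 week was -0.12 after PBS, -0.09 after MSCs and -0.20 after IL-4 MSCs (adjusted p = 0.474, 0.593 and 0.109), and none was called. Without sham replicate 1, Mal was called after IL-4 MSCs (log2 fold change -0.27, adjusted p = 0.0249, up to 0.399 without other libraries), whereas against the sham mice of 1 week alone the 3 log2 differences were positive, at 0.17, 0.20 and 0.11, and none was called. Against all sham mice at 3 weeks they were -0.31 after PBS (adjusted p = 0.683), -0.14 after MSCs and -0.14 after IL-4 MSCs. Against the sham mice of 3 weeks alone Mal was called lower after PBS (log2 fold change -0.49, SE 0.09, adjusted p = 0.0151) and not after MSCs (-0.32, adjusted p = 0.104) or IL-4 MSCs (-0.32, adjusted p = 0.0623). Over 8 alternatives the adjusted p of this call after PBS ran from 0.0151 to 0.807, and the fit with sham of 3 weeks was not repeated for it with single libraries left out.

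The basic proteins of compact myelin are Mbp, which binds the cytoplasmic faces of the membrane together, and Mobp, a smaller protein of the same layers. In sham Mbp had 2360 ± 161 CPM (SD, n = 5), and its group means in injured mice ran from 2162 CPM after IL-4 MSCs at 1 week to 2371 CPM after MSCs at 3 weeks. Over the 15 comparisons of groups its log2 fold changes ran from -0.13 to 0.10 and 0 were called. Mobp had 730.4 and 799 CPM in the sham mice of 1 week, 966, 946 and 948 CPM in those of 3 weeks, and 807, 599, 751 and 786 CPM after PBS at 3 weeks. The sham values of 3 weeks were close to each other and above all 4 PBS mice. Against all sham mice, Mobp after PBS at 3 weeks had a log2 fold change of -0.25 (95% confidence interval -0.43 to -0.07), which was not called (adjusted p = 0.753). Against the sham mice of 3 weeks it was -0.38 after PBS (adjusted p = 0.0664), -0.13 after MSCs (adjusted p = 0.603) and -0.29 after IL-4 MSCs (adjusted p = 0.0873), none called. All 5 IL-4 MSC mice and 4 of 5 MSC mice of 3 weeks were below every sham mouse of that week, and 1 MSC mouse was above every sham mouse.

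Mag, an adhesion molecule of the innermost membrane that faces the axon, had 187 ± 18.2 CPM in sham (SD, n = 5), and its log2 fold changes over the 15 comparisons ran from -0.13 to 0.07. Cnp, the cyclic nucleotide phosphodiesterase of uncompacted myelin that keeps its cytoplasmic channels from closing, had 323 ± 30.6 CPM in sham and a span from -0.15 to 0.08. Mog, an immunoglobulin-like protein of the outermost surface, had 57.0 ± 6.51 CPM in sham and a span from -0.20 to 0.09. Ugt8a, the transferase that makes galactosylceramide, had 77.6 ± 7.47 CPM in sham and a span from -0.22 to 0.07. None of these 4 was called in any of the 15 comparisons. At 1 week their log2 fold changes from all sham mice ran from -0.16 for Ugt8a after PBS to 0.04 for Mag and Cnp after MSCs. With sham mice of the same week in their place, the signs of Mog, Mag and Cnp after PBS and IL-4 MSCs turned from negative to positive, as those of Mobp and Mal did, and none was called.

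Opalin, a transmembrane glycoprotein of oligodendrocyte membranes, had the highest log2 fold change of the members for IL-4 MSCs against PBS at 1 week, and the lowest against sham. Its level in sham was 19.1, 20.5, 23.6, 23.2 and 20.4 CPM. At 1 week it was 18.6, 16.9, 13.2, 16.9 and 14.6 CPM after PBS, 22.3, 18.1, 18.4, 15.95 and 12.6 CPM after MSCs, and 15.9, 19.4, 15.5, 14.98 and 16.2 CPM after IL-4 MSCs. All 5 PBS mice, 4 of 5 MSC mice and 4 of 5 IL-4 MSC mice were below every sham mouse. At 3 weeks it was 22.1, 19.7, 21.5 and 22.4 CPM after PBS, 25.5, 20.7, 21.1, 18.7 and 6.45 CPM after MSCs, and 22.2, 21.4, 23.6, 17.5 and 19.3 CPM after IL-4 MSCs. MSC replicate 4 was far below the sham mice, and the groups otherwise overlapped sham. The log2 fold change from sham at 1 week was -0.41 after PBS (SE 0.19, adjusted p = 0.156), -0.29 after MSCs (SE 0.19, adjusted p = 0.331) and -0.38 after IL-4 MSCs (SE 0.19, adjusted p = 0.114), and none was called. Against the sham mice of 1 week alone it was -0.32, -0.19 and -0.27, none called. With only the 2 groups compared in the fit, Opalin was called lower after PBS (-0.41, adjusted p = 0.0117) and after IL-4 MSCs (-0.35, adjusted p = 0.00449), and over all 8 alternatives the adjusted p reached 0.459 and 0.45. From 1 to 3 weeks its log2 fold change was 0.42 after PBS (adjusted p = 0.279), 0.08 after MSCs and 0.34 after IL-4 MSCs (adjusted p = 0.171), none called. The value after MSCs was 0.29 without MSC replicate 4 of 3 weeks (adjusted p = 0.159) and -0.08 without replicate 0 of 3 weeks (adjusted p = 0.896). With only the 2 groups fitted it was called after PBS (adjusted p = 0.0221) and IL-4 MSCs (adjusted p = 0.0146), where the other alternatives reached 0.342 and 0.195.

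**Figure D2:**
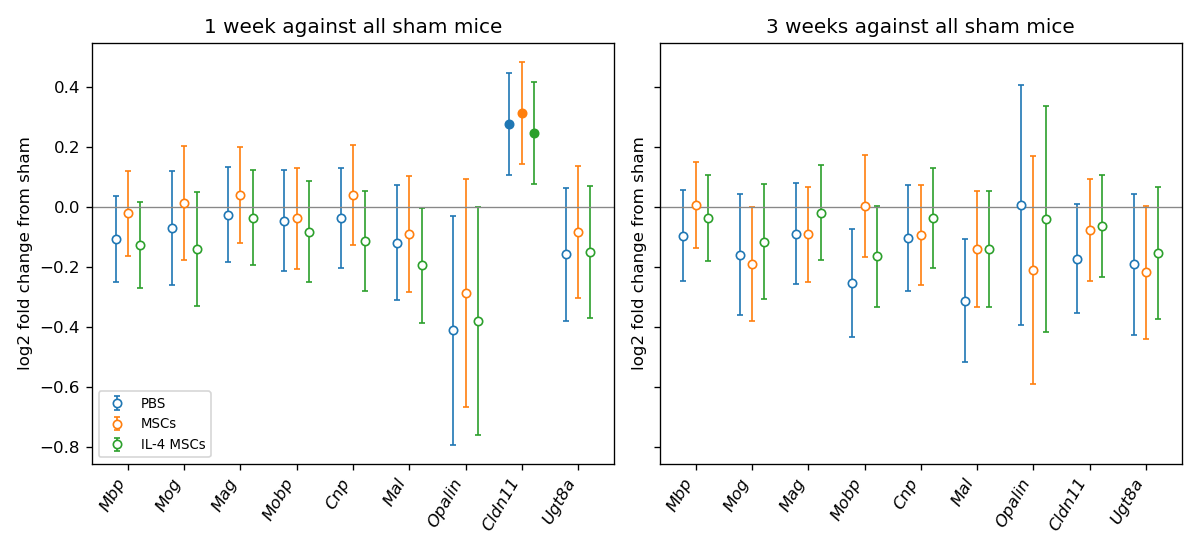
Log2 fold change from all 5 sham mice of each member at 1 week and at 3 weeks, with 95% confidence intervals and filled points where called. Cldn11 at 1 week is filled in all 3 groups, at 0.28, 0.31 and 0.25, and at 3 weeks every point is open.

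Whether the treatments differed at 1 week was asked by comparing the injured groups with each other. Of the 9 members, 0 were called by edgeR between IL-4 MSCs and PBS, where 17.4% of all genes were called, 0 between IL-4 MSCs and MSCs, where 8.69% were, and 0 between MSCs and PBS, where 0.123% were. At an unadjusted p under 0.05 the count was 0 in all 3, and DESeq2 also called 0. Between IL-4 MSCs and PBS the log2 fold changes ran from -0.08 in Mal (95% confidence interval -0.27 to 0.12) to 0.03 in Opalin (-0.35 to 0.42), with a median of -0.03 beside -0.00419 over all genes. Mag, at -0.01, was above 0 with other size factors (RLE). For Mbp the difference was -0.02 with an interval of -0.16 to 0.12, and for Cldn11 it was -0.03 with an interval of -0.20 to 0.14. All 9 members were lower on average after IL-4 MSCs than after MSCs, from -0.15 in Mog to -0.04 in Mobp, and higher on average after MSCs than after PBS, from 0.01 in Mobp to 0.12 in Opalin.

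At 3 weeks 0 of the 9 members were called by edgeR against sham, where 0.0292% of all genes were called after PBS, 1.15% after MSCs and 4.27% after IL-4 MSCs. At an unadjusted p under 0.05 there were 2 after PBS, 0 after MSCs and 0 after IL-4 MSCs, and DESeq2 called 0 in each with 2, 2 and 1 unadjusted. The median log2 fold change of the 9 was -0.16 after PBS, -0.09 after MSCs and -0.06 after IL-4 MSCs, beside 0.00245, 0.00268 and 0.01 over all genes. Between treatments at 3 weeks 0 members were called, while 2.94% of all genes were called between IL-4 MSCs and PBS, 3.47% between IL-4 MSCs and MSCs, and 0.0817% between MSCs and PBS. The counts behind the first 2 of these shares, 504 and 594 genes, were 0 and 0 by edgeR with only the groups compared, with 2431 and 2272 at an unadjusted p under 0.05, and ran from 97 to 1582 and from 87 to 1716 with single libraries left out. DESeq2 also called 0 members in these 3, and edgeR had 0, 0 and 1 at an unadjusted p under 0.05. That 1 was Mobp after MSCs against PBS, with a log2 fold change of 0.26 (95% confidence interval 0.08 to 0.44, adjusted p = 0.651). Without PBS replicate 1 of 3 weeks, which had the lowest Mobp of all libraries, it was 0.17 (adjusted p = 1), with an unadjusted p above 0.05. For IL-4 MSCs against PBS the log2 fold changes ran from -0.05 in Opalin to 0.17 in Mal, which was 0.09 without the same PBS mouse.

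Whether a treatment difference itself changed between 1 and 3 weeks was tested as an interaction in the same fit. edgeR called 0 of the 9 members for IL-4 MSCs against PBS, where 4.72% of all genes were called, and 0 for IL-4 MSCs against MSCs, where 7.86% were. For MSCs against PBS it called 0 members and 0% of all genes, with 572 genes at an unadjusted p under 0.05 and 6 called by DESeq2. The unadjusted counts of members were 0, 0 and 1, and DESeq2 called 0 members in each. Mobp was the 1, with a log2 difference of -0.25 (95% confidence interval -0.50 to -0.00369).

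The change from 1 to 3 weeks in injured mice was then set against the change in sham mice, in the fit with sham split by week. The sham change rests on 2 and 3 mice. After PBS 3 of the 9 members were called, all lower, where 5.51% of all genes were called. After MSCs 2 were called, where 3.66% were, and after IL-4 MSCs 3 were called, where 18.3% were. Cldn11 had a log2 difference of -0.83 after PBS (SE 0.13, adjusted p = 0.000561), -0.78 after MSCs (SE 0.12, adjusted p = 0.00117) and -0.71 after IL-4 MSCs (SE 0.12, adjusted p = 9.87e-05), and these held without any 1 library. Mal had -0.66 after PBS (adjusted p = 0.00644), -0.52 after MSCs (adjusted p = 0.0285) and -0.43 after IL-4 MSCs (adjusted p = 0.023). Mobp had -0.52 after PBS (adjusted p = 0.0237) and -0.41 after IL-4 MSCs (adjusted p = 0.026), and -0.28 after MSCs, which was not called (adjusted p = 0.229). Whether these changes differed between the injured groups is what the interactions above tested, and none of the 9 members was called there. The calls of Mal were lost without sham replicate 1 in all 3 groups. After MSCs and IL-4 MSCs they were also lost without sham replicate 0 or 3. The call of Mal after MSCs was lost without sham replicate 4 or MSC replicate 2 of 1 week as well. The calls of Mobp were lost without sham replicate 0 after PBS and IL-4 MSCs, and without sham replicate 1 or 4 after PBS. Without sham replicate 0 or 1, the sham set of 1 week is 1 mouse, and the spread then comes from the other groups. Without MSC replicate 4 of 1 week, Mog and Mag were called as well after MSCs, and without MSC replicate 3 of 3 weeks Mog was.

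Against sham mice of the same week, 1 member, Cldn11, was called higher at 1 week in each group, where 11.2% of all genes were called after PBS, 17% after MSCs and 33.9% after IL-4 MSCs. At 3 weeks 1 member, Mal, was called after PBS, where 0.173% of all genes were called. edgeR called 0 after MSCs and 0 after IL-4 MSCs, where 0.369% and 0.95% of all genes were. All 9 members were lower on average than in the sham mice of 3 weeks in each of the 3 groups, with medians of -0.27, -0.23 and -0.22. The members were also set against genes that specify the lineage. The mean log2 CPM of the 9 members minus that of the transcription factors Olig1, Olig2 and Sox10 was 1.86 ± 0.11 in sham (SD, n = 5), 1.74 ± 0.03 in the sham mice of 1 week (SD, n = 2) and 1.94 ± 0.03 in those of 3 weeks (SD, n = 3). It was 1.75 ± 0.08 after PBS, 1.78 ± 0.03 after MSCs and 1.66 ± 0.11 after IL-4 MSCs at 1 week (SD, n = 5 each). At 3 weeks it was 1.80 ± 0.07 after PBS (SD, n = 4), 1.75 ± 0.15 after MSCs and 1.85 ± 0.08 after IL-4 MSCs (SD, n = 5 each), and these differences were not tested. The 3 factors are part of a list of 8. After IL-4 MSCs at 1 week against sham, Olig1 (0.17) and Olig2 (0.20) were themselves called higher, and Sox8 of the list (-0.19) lower. The value of 1.66 after IL-4 MSCs thus cannot be read as a change of the members alone.

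Other genes of the myelin program were compared in the same way, beside the 13.8%, 17.8% and 37% of all genes called at 1 week against sham. Of 14 further genes of myelin structure and membrane, 1 fell after PBS at 1 week against sham, 0 were called after MSCs and 3 fell after IL-4 MSCs, with medians of -0.12, -0.05 and -0.11. Among those after IL-4 MSCs were Gjc3, a gap junction protein of glia (-0.23, adjusted p = 0.00201), and the receptor Gpr37 (-0.27, adjusted p = 0.0172). Of 6 genes of myelin lipid synthesis 1 rose after PBS, 1 after MSCs and 2 after IL-4 MSCs. Elovl1, an elongase of very long fatty acids, rose by 0.26 (adjusted p = 0.00314), 0.31 (adjusted p = 0.000373) and 0.40 (adjusted p = 2.23e-06) on the log2 scale, and Cers2, a ceramide synthase and the most abundant of the list, by 0.21 after IL-4 MSCs (adjusted p = 0.00619). From 1 to 3 weeks Elovl1 fell by 0.34 after PBS, by 0.20 after MSCs and by 0.41 after IL-4 MSCs, all called, as Cldn11 was. Of 8 oligodendrocyte transcription factors edgeR called 0 after PBS and MSCs at 1 week, and after IL-4 MSCs Olig1 (0.17, adjusted p = 0.0399) and Olig2 (0.20, adjusted p = 0.0451) rose and Sox8 (-0.19, adjusted p = 0.0179) fell. Of 7 genes of newly formed oligodendrocytes 1 rose in each group, Itpr2, a calcium release channel (0.32, 0.32 and 0.34). Of 6 genes of precursors 2 rose after PBS, 1 after MSCs and 2 after IL-4 MSCs. For IL-4 MSCs against PBS at 1 week edgeR called 0 of the 14, 6, 8 and 7 genes of these myelin lists and 1 of the 6 precursor genes. Apart from Cers2 and Olig1, which are the most abundant of their lists by mean CPM and by mean TPM, these genes were chosen after their values were seen.

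Cells other than oligodendrocytes changed at the same time as Cldn11. Of 8 markers of microglia and macrophages 7 rose in each injured group at 1 week against sham, with median log2 fold changes of 0.83, 0.87 and 1.07. Their summed level was 220.1 and 205 CPM in the sham mice of 1 week and 217, 201 and 274 CPM in those of 3 weeks. At 1 week it was 383, 409, 384, 358 and 332 CPM after PBS, 369, 375, 434, 360.5 and 367 CPM after MSCs, and 462, 504, 438, 426 and 414 CPM after IL-4 MSCs. At 3 weeks it was 231, 237, 254 and 268 CPM after PBS, 281, 257, 246, 267 and 304 CPM after MSCs, and 285, 271, 258, 244 and 274 CPM after IL-4 MSCs. Every injured mouse of 1 week was above every sham mouse, as most were for Cldn11, and at 3 weeks the groups overlapped sham through 1 sham mouse at 274 CPM, the other 4 being below every injured mouse. At 3 weeks against sham edgeR called 0 of the 8 after PBS, and 3 rose after MSCs and 4 after IL-4 MSCs, with medians of 0.13, 0.28 and 0.34. The most abundant of these markers was Csf1r, and none was at 0 in any library. Across all libraries r between this list and Cldn11 was 0.728, and within groups it was 0.224, or 0.105 to 0.316 with single libraries left out. Of 7 astrocyte markers 5 rose in each group, and Slc1a2, the most abundant, fell after IL-4 MSCs. Of 9 neuronal markers 5 fell after PBS, 6 after MSCs and 8 after IL-4 MSCs, and Snap25 was the most abundant. Astrocyte markers summed to 5115 to 5693 CPM in sham and to 5721 to 7074 CPM over the injured mice of 1 week, and neuronal markers to 6482 to 7150 CPM and 5519 to 6197 CPM. The part of these cells in the change of Cldn11 was not tested.

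Cells that could carry Cldn11 or myelin transcripts of their own were also counted. Of 12 markers of leptomeninges and fibroblasts, a list added after the data were seen, 1 rose after PBS at 1 week against sham, 2 rose after MSCs, and 3 rose and 3 fell after IL-4 MSCs. Their summed level was 500 to 888 CPM in sham, 644 to 801 CPM after PBS, 735 to 930 CPM after MSCs and 640 to 681 CPM after IL-4 MSCs at 1 week. The sham mice of 1 week, at 784 and 888 CPM, and all MSC mice of that week were above all IL-4 MSC mice, and the sham mice of 3 weeks, at 500 to 708 CPM, were below those of 1 week. Within groups r between this list and Cldn11 was -0.28 over the 34 libraries, -0.378 to -0.165 with single libraries left out, and -0.00902 with the sham weeks kept apart. Ptgds was its most abundant gene, and none of the 12 was at 0. Of 7 Schwann cell markers 3, Pmp2 and Foxd3 among them, were at 0 in at least 1 library and too low to be tested, and Drp2 was the most abundant. Of the 4 tested, 0 were called by edgeR after PBS and MSCs at 1 week against sham, and 1 fell after IL-4 MSCs. Of 6 endothelial markers 0 were called after PBS and MSCs and 4 rose after IL-4 MSCs. Their most abundant gene was Flt1 by mean CPM and Cldn5 by mean TPM.

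Markers of brain regions were compared with sham at 1 week in the same way. Of 6 cortical projection neuron markers, with Slc17a7 the most abundant, 2 fell after PBS, 0 were called after MSCs and 3 fell after IL-4 MSCs. Of 6 hippocampal markers, with Zbtb20 the most abundant by mean CPM and Wfs1 by mean TPM, edgeR called 1 lower after IL-4 MSCs and DESeq2 called 0. Of 6 ependyma and choroid plexus markers, with Ttr the most abundant, 1 rose after IL-4 MSCs. The striatal and thalamic lists had 0 called by edgeR in any of the 3 groups, though the striatal list's median log2 fold change was -0.73 after PBS, 0.00211 after MSCs and 0.23 after IL-4 MSCs, and that of the thalamic list was 0.13, -0.04 and 0.03. Within groups r between the ependyma list and the members was highest for Mal at 0.591 and Cldn11 at 0.568. The markers of cortex were present in every library, with summed levels of 1157 to 1577 CPM, and so were those of the striatum, hippocampus and thalamus.

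While the members did not separate IL-4 MSCs from PBS at 1 week, single genes of the other lists did, where 17.4% of all genes were called. Cd68, a lysosomal protein of phagocytes, had a log2 fold change of 1.34 (adjusted p = 1.24e-07), Ptprc, the common leukocyte antigen, 1.10 (adjusted p = 0.000995) and Aif1 0.48 (adjusted p = 0.00812). Among endothelial genes Pecam1 had 1.14 (adjusted p = 3.83e-11), Cldn5, a claudin of the blood-brain barrier, 0.85 (adjusted p = 5.89e-06) and Cdh5 0.43 (adjusted p = 0.000242). Among leptomeningeal and fibroblast genes the collagens Col1a1 and Col1a2 had 1.21 (adjusted p = 0.000318) and 1.20 (adjusted p = 7.81e-05), and Ptgds -0.50 (adjusted p = 0.0453). Map2 and Syt1, 2 called by edgeR of 9 neuronal markers, had -0.18 (adjusted p = 0.0012) and -0.11 (adjusted p = 0.0496), and DESeq2 called 1 of the 9. In 3 lists the 1 called gene had the opposite sign to its list's median. Slc1a2, the glutamate transporter of astrocytes, had -0.25 (adjusted p = 0.000392) where the 7 astrocyte markers had a median of 0.04. Drp2 had -0.11 (adjusted p = 0.029) where the 4 tested Schwann cell markers had 0.13, and Vcan, which precursors make, had 0.26 (adjusted p = 0.0103) where the 6 precursor markers had -0.05. Called genes were 4 of 8 markers of microglia and macrophages (median 0.19), 5 of 6 of endothelium (median 0.42), and 3 of 12 of leptomeninges and fibroblasts (median 0.03). DESeq2 called 4, 6 and 2 in these lists. The largest median of any list, 0.92, was that of the 8 striatal markers, of which edgeR and DESeq2 each called 0 and had 7 at an unadjusted p under 0.05. The 6 hippocampal markers had -0.27, with 0 called and 1 unadjusted by each tool. The members' intervals held some of the smaller of these values, such as -0.18 and -0.11 in that of Mal (-0.27 to 0.12).

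The members were next compared with each other across the 34 libraries, as log2 CPM with each group's mean subtracted, as a description without a test. All points share their library's depth and scaling. The 36 pairs had a median r of 0.698. Mog and Cnp were closest at 0.945, followed by Mal and Cldn11 at 0.943, Mog and Mag at 0.900 and Mag and Cnp at 0.891. Ugt8a went with Mag (0.849), Cnp (0.848) and Mog (0.806). Mobp went with Cldn11 (0.814) and Mal (0.807), and least with Opalin (-0.06). Without MSC replicate 4 of 3 weeks, which had the lowest Opalin and the highest Mobp, the last value was 0.289. Against the mean of the other 8 members, r was 0.964 for Cnp and 0.949 for Mog, and lowest for Opalin at 0.569 and Mobp at 0.477, which ran from 0.369 without PBS replicate 1 of 3 weeks to 0.756 without the same MSC library. With the sham weeks kept apart, the pair of Mal and Cldn11 had 0.911, that of Mobp and Mal 0.738 and that of Mobp and Cldn11 0.748. Ugt8a then had 0.843 with Mag, 0.841 with Cnp and 0.796 with Mog. Cldn11 and Mal, close within groups, had r of 0.589 without subtraction of the group means.

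**Figure D3:**
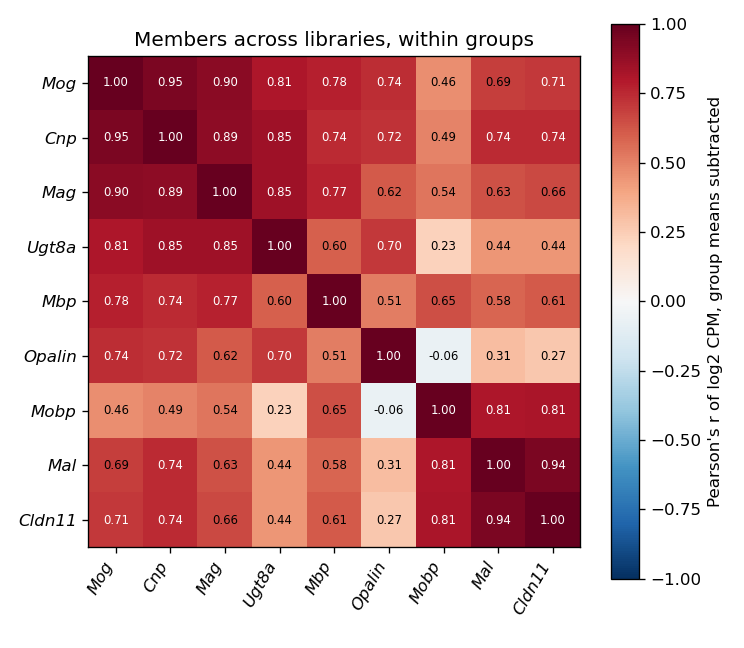
Pearson's r between each pair of members over 34 libraries, from log2 CPM with group means subtracted, on a colour scale from -1 to 1. Mog, Cnp and Mag form a block of 0.89 to 0.95, and Mal, Cldn11 and Mobp a block of 0.81 to 0.94. Ugt8a, outside these blocks, has 0.81 with Mog and 0.85 with Cnp and with Mag. The lowest pair is Mobp with Opalin at -0.06, or 0.289 without MSC replicate 4 of 3 weeks.

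Outside the members, 9 of the 10 genes most like their mean log2 CPM over the 34 libraries were Tspan2 (r = 0.905), Ttyh2 (0.856), Tmem88b (0.831), Fa2h (0.827), Gal3st1 (0.811), Tmem63a (0.770), Sept4 (0.763), Bcas1 (0.763) and Prr18 (0.750). After each group's mean was subtracted these were 0.938, 0.870, 0.857, 0.863, 0.846, 0.818, 0.904, 0.817 and 0.885 in the same order. Tspan2 and Tmem88b belong to the list of other myelin structure and membrane, Fa2h and Gal3st1 to that of lipid synthesis, and Bcas1, the most abundant of its list, to that of newly formed oligodendrocytes.

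Promoter windows are shown for the 3 members of each block in the figure, to let their letters be compared. That of Ugt8a is not shown, though its r with Mog, Cnp and Mag was 0.806 to 0.849. RefSeq sequences for the build GRCm38.p6 matched 8 of the 9 members, Mbp being the one without, and gave 10 windows of the 250 bases before a start, 3 of them for Mag. Motifs searched on both strands were ACAAAG and AACAAT for SOX factors and CTGGCAC and CTGGTAC for MYRF, and capitals mark their matches. Of all 32851 such windows 16.5% held ACAAAG, 9.42% AACAAT, 4.19% CTGGCAC and 1.83% CTGGTAC. Mog (chr17:37023399-37023648, minus strand) held CTGGTAC once, Cnp (chr11:100574689-100574938, plus strand) and Mag (chr7:30914864-30915113, minus strand) each held ACAAAG and CTGGCAC once, as did an overlapping window of Mag (chr7:30914923-30915172), while its remaining window (chr7:30914322-30914571) held none of the 4. Mobp (chr9:120149492-120149741, plus strand) held ACAAAG 6 times. Mal (chr2:127656696-127656945, minus strand) and Cldn11 (chr3:31149670-31149919, plus strand) held none of the 4 in these windows. Of the others, Opalin held ACAAAG once and Ugt8a none. A match is a description of letters and not a binding site. The sequences run 5′ to 3′ on the strand of the gene.
Mog: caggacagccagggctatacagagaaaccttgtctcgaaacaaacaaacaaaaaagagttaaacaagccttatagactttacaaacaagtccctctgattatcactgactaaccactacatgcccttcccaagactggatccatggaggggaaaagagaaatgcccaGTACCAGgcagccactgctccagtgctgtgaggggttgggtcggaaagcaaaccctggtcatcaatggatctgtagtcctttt
Cnp: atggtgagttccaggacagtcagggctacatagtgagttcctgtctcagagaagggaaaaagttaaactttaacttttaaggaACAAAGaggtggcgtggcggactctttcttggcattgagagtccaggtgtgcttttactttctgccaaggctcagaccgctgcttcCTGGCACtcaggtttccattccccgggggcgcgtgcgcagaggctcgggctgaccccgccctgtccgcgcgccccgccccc
Mag: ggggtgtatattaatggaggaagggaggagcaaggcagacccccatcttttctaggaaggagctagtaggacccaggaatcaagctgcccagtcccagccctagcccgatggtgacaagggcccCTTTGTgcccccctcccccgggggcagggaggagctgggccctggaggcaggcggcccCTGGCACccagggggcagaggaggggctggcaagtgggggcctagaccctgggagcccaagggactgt
Mal: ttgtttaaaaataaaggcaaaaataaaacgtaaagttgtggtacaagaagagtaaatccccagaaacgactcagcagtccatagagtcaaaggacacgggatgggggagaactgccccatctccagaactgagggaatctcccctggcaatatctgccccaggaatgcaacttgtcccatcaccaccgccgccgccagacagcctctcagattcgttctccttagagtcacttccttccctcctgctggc
Cldn11: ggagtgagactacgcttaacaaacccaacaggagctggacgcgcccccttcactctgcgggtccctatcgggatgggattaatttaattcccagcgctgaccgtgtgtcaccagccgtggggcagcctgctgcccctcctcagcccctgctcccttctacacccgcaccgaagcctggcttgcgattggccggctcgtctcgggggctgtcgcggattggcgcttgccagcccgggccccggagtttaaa
Mobp: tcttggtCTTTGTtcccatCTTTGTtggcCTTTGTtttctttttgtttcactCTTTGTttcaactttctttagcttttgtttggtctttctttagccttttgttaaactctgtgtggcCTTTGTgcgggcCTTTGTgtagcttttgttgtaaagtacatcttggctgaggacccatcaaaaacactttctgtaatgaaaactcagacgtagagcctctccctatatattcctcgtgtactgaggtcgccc

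Values against sham rest on 5 mice that differed by week, and each comparison between treatments on 5 mice per group or fewer. An effect that was not called is not shown to be absent, and the intervals give the sizes that these mice allow. The markers of other cells and regions varied between libraries, and their part in the members' levels was not tested.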

How the data were processed

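Bulk RNA-seq of 34 libraries, 1 per mouse, was used. The authors trimmed reads with cutadapt 2.4, checked them with FastQC 0.11.8, quantified GENCODE transcripts of protein-coding genes by kallisto 0.46 and ran sleuth 0.30 in R 3.6.1. The authors deposited kallisto's estimated counts, summed per gene. The deposited TPM, scaled by kallisto for transcript length and depth, were also summed per gene by the authors. The table's columns of the authors' own tests were not used.

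Counts were scaled by TMM and compared with the quasi-likelihood F test of edgeR 4.0.16 in R 4.3.3, in 1 fit of 7 groups over the 17131 genes that passed filterByExpr. Tests were two-sided, and genes were called at a Benjamini-Hochberg adjusted p under 0.05 over all genes tested. P values set a difference between groups against the spread between mice within groups. They do not cover variation between injured groups that goes with the bracketed number in the titles. Log2 CPM used a prior count of 2. The steps were tested on simulated data with changes larger than any reported for the members. That test does not show how well smaller changes are found. DESeq2 1.42.0 was run beside edgeR, and figures were drawn with matplotlib 3.10.9. Other alternatives were RLE and upper quartile factors, no filter on low counts, fits of only the groups compared, sham mice of the same week, replicate number as a block, each library left out, and prior counts of 0.5 and 5. A fit with sham split by week (8 groups, 17362 genes tested), the list of leptomeninges and fibroblasts, the ranking of each list by mean TPM, and values of r within groups with each library left out were added after the data were seen.

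Before the data were examined, the genes to be named were set as every member, with values per mouse for members called at 1 week and for those with the lowest and highest log2 fold change of IL-4 MSCs against PBS at 1 week. From each other list they were up to 3 called genes with the largest change in that comparison and the most abundant gene by mean CPM, with the 10 genes most like the members' mean. Some genes that this rule names are left out of the text. Members and lists were chosen with earlier results of these data known.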

Additional observations from a re-analysis of the deposited data

Results flagged for a closer look

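Of 63 combinations of a member and a group, 4 held 1 mouse whose gap to the nearest other mouse, divided by the group's range on the scale of log2 CPM, was above Dixon's critical value (0.71 for 5 mice, and higher for the group of 4), and chance alone gives about 1 in 20 such groups. Mog had 43.75 CPM in IL-4 MSC replicate 3 at 3 weeks, against 52.8 to 56.9 CPM in the other mice of the group. Mal had 242.5 CPM in IL-4 MSC replicate 2 at 3 weeks, against 192 to 195 CPM in the others. Opalin had 6.45 CPM in MSC replicate 4 at 3 weeks, against 18.7 to 25.5 CPM in the others. Ugt8a had 60.6 CPM in PBS replicate 4 at 1 week, against 69.3 to 73.2 CPM in the others.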

How the results depend on the processing

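Of 814 values of 78 results under the alternatives, 738 kept their direction and side of the threshold or stayed within the set margin. Another 64 moved, 6 were weaker, 6 were stronger and 0 reversed. Only some log2 fold changes of Cldn11, Opalin, Mal and Mobp could be labelled reversed, and counts of genes could not. The changes of sign given above for Mog, Mag, Cnp, Mobp and Mal at 1 week with sham mice of the same week were not among these values. Nor were those of Mag with RLE factors and of Opalin after MSCs from 1 to 3 weeks. The causes were not tested. The largest shift of the median of all genes was 0.02 on the log2 scale. Upper quartile factors changed the share of called genes that were higher after MSCs at 1 week against sham from 61.4% to 73.5%. With each of the 34 libraries left out in turn, the count of members called ran from 0 to 1 after PBS at 1 week against sham. For the change from 1 to 3 weeks minus that of sham it ran from 1 to 3 after PBS, from 1 to 4 after MSCs and from 1 to 3 after IL-4 MSCs.

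With only the groups compared in the fit, the count of members was 2 after IL-4 MSCs at 1 week against sham, beside 36.4% of all genes, 2 after PBS from 1 to 3 weeks, beside 4.09%, and 2 after IL-4 MSCs from 1 to 3 weeks, beside 31.1%. With sham mice of the same week it was 1 after PBS at 3 weeks, beside 0.169% of all genes, and with sham split by week it was 1 as well, beside 0.173%. DESeq2 called 2 members between the sham mice of the 2 weeks, and 351 of all genes where edgeR called 16. Replicate number as a block changed no count of members.

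Counts of all genes called moved most at 3 weeks. With only the groups compared they fell from 504 to 0 between IL-4 MSCs and PBS and from 594 to 0 between IL-4 MSCs and MSCs. With single libraries left out these ran from 97 to 1582 and from 87 to 1716, and for IL-4 MSCs against sham from 233 to 1724.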
